A study of Mus musculus with 27 samples.

Results

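The interleukin 1 family was followed across 27 one-colour Affymetrix arrays of mouse bone marrow cultures through 7 genes: the ligand genes Il1b, Il1a and Il18, the antagonist gene Il1rn, the decoy receptor gene Il1r2 and the accessory chain genes Il1rap and Il18rap. They are 7 of 9 listed symbols. Il1r1 and Il1rl1 were not analysed here. A member was a probe set that the platform annotation gives 1 listed symbol and no other gene, and where a gene had several, the one with the highest mean log2 signal over the 27 arrays was to be taken. Each of the 7 genes had a single probe set, so that mean decided nothing between probe sets. The rule selected on no other measured value, but the symbols themselves were chosen with earlier results of these data known. The mean was 8.39 for Il1b (probe set 10487597), 7.47 for Il1a (10487588), 6.72 for Il18 (10585194), 9.56 for Il1rn (10469816), 8.76 for Il1r2 (10345752), 8.01 for Il1rap (10434845) and 9.12 for Il18rap (10345824). These means describe brightness only, and no probe set's level is set against another's. The 7 genes stand among 19935 genes tested.

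Interleukin 1 alpha and interleukin 1 beta, the products of Il1a and Il1b, bind the same signalling receptor, which recruits the accessory chain made from Il1rap and activates NF-κB through the adaptor MyD88. Interleukin 1 beta and interleukin 18 are made as precursors that caspase-1 cleaves in inflammasomes, while the interleukin 1 alpha precursor is active without that cut. The antagonist made from Il1rn occupies the receptor without recruiting the accessory chain, the product of Il1r2 binds ligand but lacks a signalling domain, and the product of Il18rap completes the interleukin 18 receptor. In bone marrow, neutrophils, monocytes and macrophages are known sources of interleukin 1.

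Cells came from the bone marrow of C57BL/6 mice aged 8 to 12 weeks, and all cultures that received a cytokine were given Flt3 ligand (Flt3-L), a growth factor for precursors of dendritic cells and other myeloid lineages. Transfected B16 tumour cells were its source, and its concentration was about 200 ng/ml. Of the 9 groups of 3 arrays, 4 were grown with Flt3-L and cyclosporin A (CsA) for 12 h, 24 h, 48 h or 11 days, 4 with Flt3-L alone for the same times, and 1 was unstimulated. CsA, an inhibitor of calcineurin and so of the NFAT transcription factors, was present at 2 µg/ml beginning 30 min ahead of Flt3-L and was not removed. The labels do not say if unstimulated cells had been cultured, so ligand and time in culture cannot be told apart. The series design calls the replicates biological, and no label says whether the 3 cultures came from separate mice. No genetic alteration is named.

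Array medians lay between 114.2 and 124.8 on the deposited linear scale. The lowest correlation between arrays of a group was 0.997 across genes, and for 26 of the 27 arrays the nearest array belonged to the same group. The third CsA array at 12 h was closest to the third Flt3-L array at 12 h, and over all probe sets the third CsA array at 24 h was also closest to an array without CsA. Without that 12 h array the count of members called at 12 h was 1, and without that 24 h array the count at 24 h was 2, the same counts as with them. Differences below are log2 values ± SE from 1 limma model over the 27 arrays, with 3 arrays in each group, and adjusted p-values are Benjamini-Hochberg over the 19935 genes of a comparison. Genes with an adjusted p under 0.05 are termed called, and "rose" or "fell" is used of called genes only. In bulk RNA, fewer cells of a type and less RNA per cell cannot be told apart, which holds for every difference below.

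The promoters of Il1b, Il1a and Il1rn are shown because these genes had the largest called CsA differences of the 7. NFAT was looked for because CsA inhibits calcineurin and so NFAT, and whether NFAT had a part in these differences was not tested. The capitals mark GGAAA, the core of the NFAT binding motif, or TTTCC, which is the same core on the other strand. The windows run from 250 bases before the start site to 50 bases after it, on the RefSeq annotation of GRCm38.p6. They lie at chr2:129371090-129371389 on the minus strand for Il1b, at chr2:129309923-129310222 on the minus strand for Il1a and at chr2:24345121-24345420 on the plus strand for Il1rn, the last being 1 of 3 RefSeq start sites of that gene.
Il1b: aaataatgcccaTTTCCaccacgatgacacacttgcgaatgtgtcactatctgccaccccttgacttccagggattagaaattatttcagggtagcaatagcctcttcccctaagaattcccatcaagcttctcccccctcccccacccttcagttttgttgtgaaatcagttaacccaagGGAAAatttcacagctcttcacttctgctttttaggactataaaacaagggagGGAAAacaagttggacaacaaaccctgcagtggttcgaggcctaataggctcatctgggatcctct
Il1a: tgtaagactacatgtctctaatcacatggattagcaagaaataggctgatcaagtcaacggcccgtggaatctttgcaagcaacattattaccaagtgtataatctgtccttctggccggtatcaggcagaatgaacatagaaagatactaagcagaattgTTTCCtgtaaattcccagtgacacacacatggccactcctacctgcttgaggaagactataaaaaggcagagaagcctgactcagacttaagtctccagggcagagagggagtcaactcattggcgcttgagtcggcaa
Il1rn: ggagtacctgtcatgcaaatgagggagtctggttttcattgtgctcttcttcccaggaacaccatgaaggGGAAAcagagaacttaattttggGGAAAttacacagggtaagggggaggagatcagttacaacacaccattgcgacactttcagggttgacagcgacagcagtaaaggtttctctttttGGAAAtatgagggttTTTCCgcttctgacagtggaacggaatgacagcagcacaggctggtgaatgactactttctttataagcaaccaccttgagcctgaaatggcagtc
The core occurred 3 times in the Il1b window, 1 time in the Il1a window and 4 times in this Il1rn window. Of the other Il1rn windows, one held 4 and one held 1, and the windows with 4 overlap each other. Among 32851 such windows of 27025 genes, 61.3% held at least 1 core, 9.42% held 3 or more and 2.65% held 4 or more. Il1rap had 2 cores, Il18 and Il18rap had 1 each and Il1r2 had 0. An AP-1 pattern (TGANTCA, both strands) was found in the Il1a window, in 1 Il1rn window not printed and in 7.81% of all windows, and a C/EBP pattern (TTNNGNAA, both strands) in all 3 windows printed and in 40.7% of all windows. An NF-κB pattern, searched on both strands, was matched in the printed Il1rn window, where it overlaps an NFAT core, in the Il1rn window that overlaps it and in 1.63% of all windows. Each of the 3 C/EBP matches in the Il1rn window shares letters with an NFAT core, and no match in the Il1b or Il1a window overlaps another. These are matches of letters, and the arrays did not measure binding at them. In the RefSeq order, Il1a and Il1b are neighbouring protein-coding genes on chromosome 2, and Il1rn lies beside Il1f10 on the same chromosome. Il1r2 and Il18rap lie on chromosome 1, Il18 on chromosome 9 and Il1rap on chromosome 16.

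CsA with Flt3-L was compared with Flt3-L alone at each time to see which family members differed with the drug. The arrays did not measure calcineurin activity. Il1b fell at all 4 times, Il1rn fell at 24 h, 48 h and 11 days, and at 11 days Il1a and Il18 rose while Il1r2 and Il18rap fell. At 12 h, 1 of the 7 members was called, against 6.73% of all genes. There were 2 members called at 24 h, where 3.78% of all genes were, and 2 at 48 h, where 4.51% were. At 11 days the count was 6 of 7 against 12.0% of all genes, of which 2 members were higher (4.92% of all genes) and 4 lower (7.08% of all genes) with CsA. The arrays of the CsA and Flt3-L groups did not overlap for 3 members at 12 h (28.3% of all genes), 4 at 24 h (16.6%), 3 at 48 h (19.1%) and 5 at 11 days (29.8%). The median log2 difference of the members was -0.04, -0.18, -0.12 and -0.45 at 12 h, 24 h, 48 h and 11 days, against -0.04, -0.01, 0.02 and 0.03 over all genes. At 12 h the called genes were 562 higher and 779 lower, and 1052 higher and 323 lower when each array's median was subtracted. The genes were picked with these results known, so the counts describe the family and test nothing about it.

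**Figure D1:**
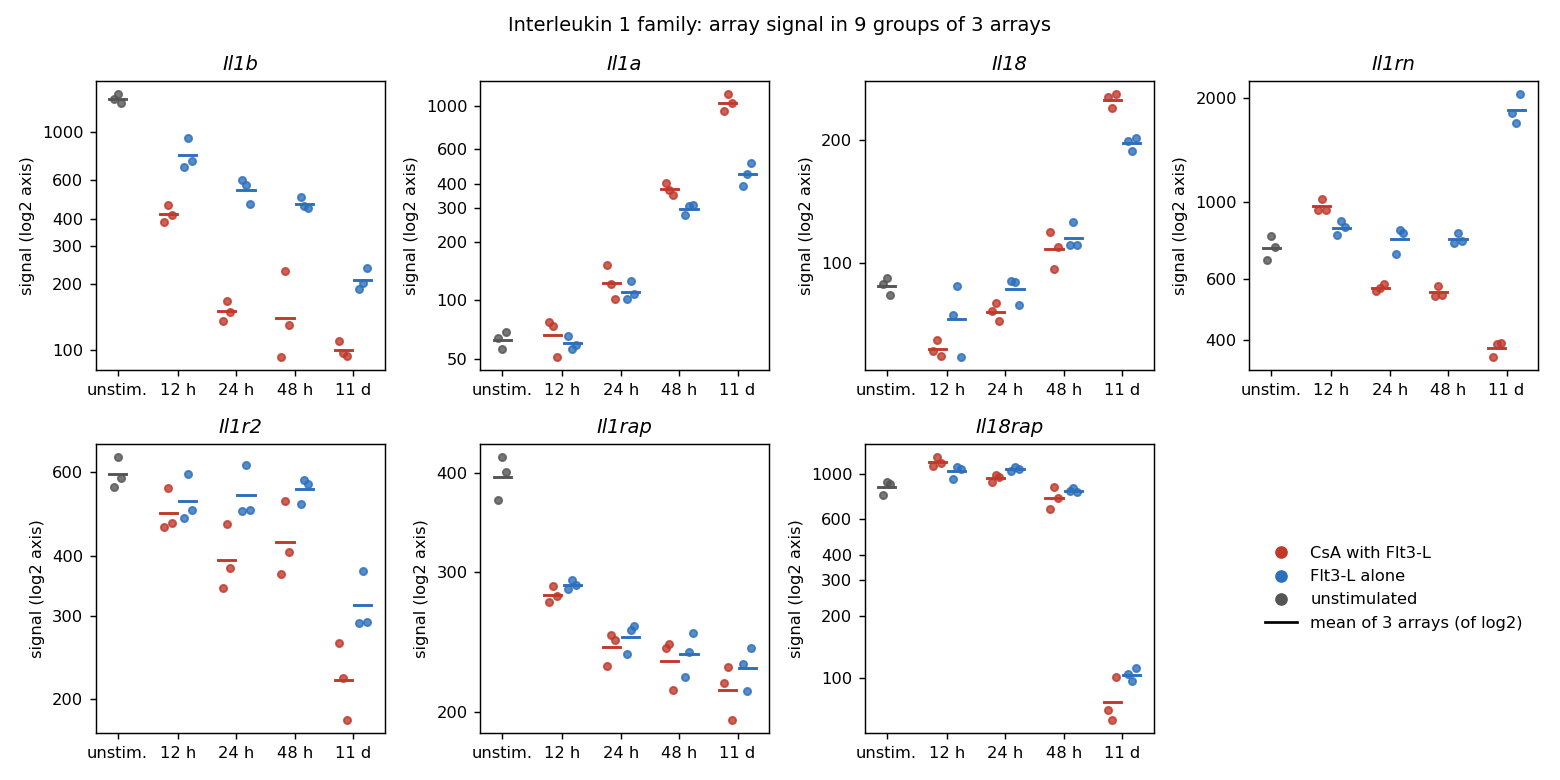
Signal of each family member on every array (points, log2 axis) in the 9 groups, with CsA and Flt3-L in red, Flt3-L alone in blue and unstimulated cells in grey; the bars are means of 3 log2 values. Il1b lay lower with CsA at every time, and at 11 days Il1rn was 378.2 with CsA against 1853.8 with Flt3-L alone, while Il1a was 1044.4 against 449.5.

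**Figure D2:**
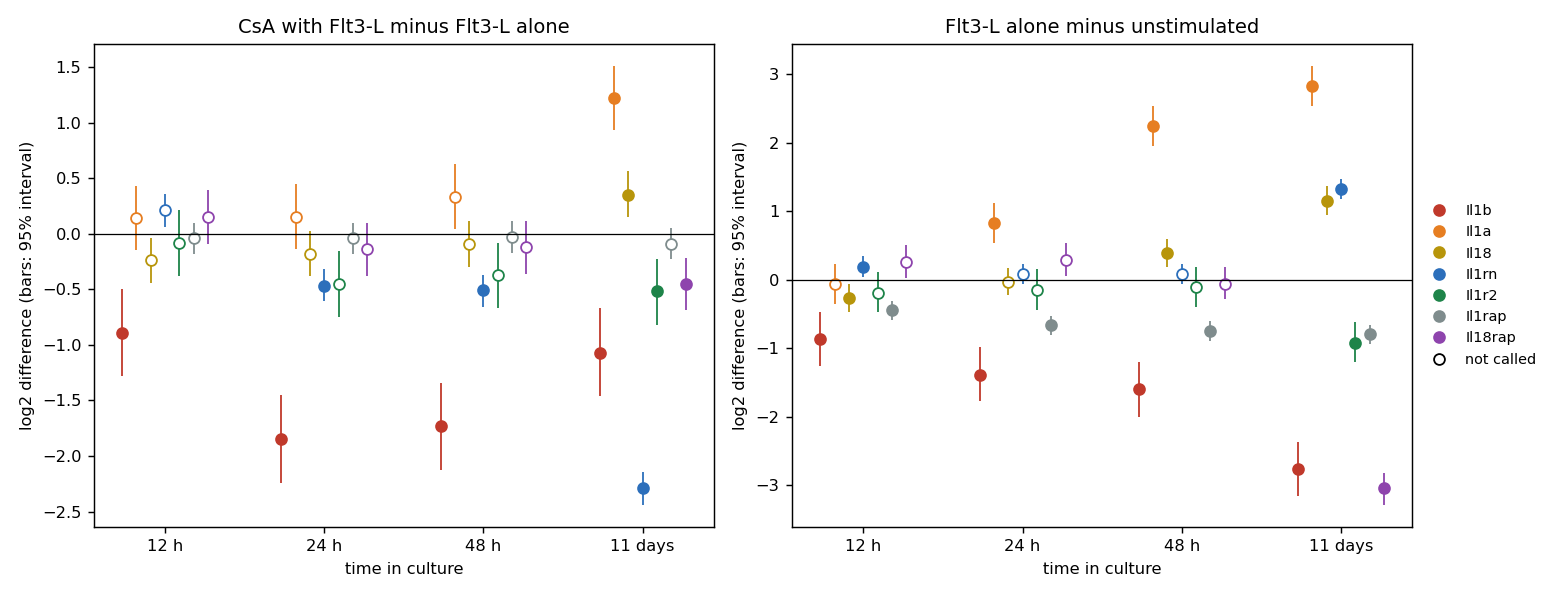
Log2 differences (points) with 95% intervals (bars) by time in culture, for CsA with Flt3-L minus Flt3-L alone (left) and Flt3-L alone minus unstimulated cells (right); filled points were called and open points were not. On the left Il1b is filled at all 4 times, and at 11 days Il1a and Il18 are above 0 while Il1b, Il1rn, Il1r2 and Il18rap are below it.

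Il1b, which encodes interleukin 1 beta, gave 386.0, 462.6 and 417.7 with CsA at 12 h, against 687.0, 937.5 and 736.1 with Flt3-L alone. At 24 h the CsA arrays gave 135.7, 167.9 and 150.1 and the Flt3-L arrays 599.0, 570.4 and 468.0. Every CsA array was below every Flt3-L array at both times. Il1b fell by 0.89 ± 0.19 at 12 h (adjusted p = 0.00786, limma), or 1.85-fold. It was -1.85 ± 0.19 at 24 h, 3.6-fold lower (adjusted p = 1.09e-06, limma). At 48 h the signals were 92.8, 230.5 and 130.6 with CsA and 500.6, 455.8 and 448.1 with Flt3-L alone. The CsA cultures were spread over a wide range at that time, with the second array highest, but none reached a Flt3-L array. The difference was -1.73 ± 0.19 (adjusted p = 2.24e-06, limma), and leaving out single arrays moved it between -2.09 and -1.43. That SE comes from a variance shared by all groups, while the CsA arrays at 48 h had a log2 SD of 0.66. Under 10 other settings the highest adjusted p was 0.0123 (limma). At 11 days Il1b gave 109.4, 96.6 and 93.9 with CsA against 190.0, 201.9 and 237.0 with Flt3-L alone, again without overlap, and fell by 1.07 ± 0.19 (adjusted p = 2.41e-04, limma). Counted from the most negative of 19935 differences, Il1b ranked 10 at 12 h, 2 at 24 h, 5 at 48 h and 123 at 11 days. The difference at 48 h was not shown to exceed that at 12 h (-0.84 ± 0.27, adjusted p = 0.135, limma), although without the second CsA array at 48 h it was called (-1.20, adjusted p = 0.00262, limma). Nor was the Il1b effect at 11 days shown to differ from the average over the earlier times (0.42 ± 0.22, adjusted p = 0.218, limma). Without that same array, this difference was called too (0.54, adjusted p = 0.0164, limma).

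The same gene also fell with Flt3-L alone against unstimulated cells, and these comparisons share the Flt3-L arrays with the CsA comparisons, so their values stand side by side and are not related to each other. Unstimulated cells gave 1418.4, 1489.3 and 1357.7 for Il1b, above every other array of the series. Flt3-L cultures were lower by -0.87 ± 0.19 at 12 h (adjusted p = 7.42e-04, limma), -1.39 at 24 h (1.59e-06), -1.60 at 48 h (1.34e-07) and -2.77 at 11 days (2.24e-12), the last 6.81-fold. From 24 h on, the mean with CsA (151.2 ± 16.1 at 24 h, 151.3 ± 71.1 at 48 h and 100.0 ± 8.28 at 11 days, SD, n = 3 each) was below the mean of 209.6 that Flt3-L cultures had at 11 days, and at 48 h its arrays overlapped that range. Over the 9 groups the highest mean of Il1b was 14.2-fold the lowest.

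Il1a, which encodes interleukin 1 alpha, rose with time in culture and was higher still with CsA at 11 days. It was 63.0 ± 6.4 in unstimulated cells (SD, n = 3), below the array medians, and with Flt3-L alone the means were 60.1 at 12 h, 111.4 at 24 h, 297.3 at 48 h and 449.5 at 11 days. Each of the steps after 12 h was called (0.89 ± 0.14 at 24 h over 12 h, 1.42 at 48 h over 24 h and 0.59 at 11 days over 48 h, with limma adjusted p-values of 7.04e-05, 5.88e-08 and 0.00121). At 11 days the 3 CsA arrays gave 942.7, 1155.6 and 1035.0, against 387.3, 449.4 and 511.8 with Flt3-L alone. No arrays of the groups overlapped, and the rise was 1.22 ± 0.14, or 2.33-fold (adjusted p = 5.90e-07, limma), rank 12 from the most positive of 19935 differences. At 48 h the arrays were also apart, with 404.3, 368.5 and 350.7 in CsA cultures and 276.2, 305.8 and 310.0 in Flt3-L cultures, but 0.33 ± 0.14 was not called (adjusted p = 0.246, limma). At 12 h and 24 h the arrays overlapped and the differences were 0.14 and 0.15, with 95% intervals of -0.15 to 0.43 and -0.14 to 0.45. Its CsA effect was larger at 11 days than the average over the earlier times by 1.01 ± 0.16 (adjusted p = 1.03e-04, limma). In all, 4 of the 7 members were called when the effects at 11 days and earlier were compared in this way, against 11.9% of all genes.

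Il18, whose product is the ligand of the interleukin 18 receptor, was the third ligand measured and lay near the array medians or below them until 48 h. At 11 days it gave 254.4, 238.9 and 257.9 with CsA and 198.4, 187.9 and 201.5 with Flt3-L alone. The groups were apart and Il18 rose by 0.35 ± 0.10, 1.28-fold (adjusted p = 0.0164, limma). The call was lost without the second Flt3-L array (adjusted p = 0.0659), the first CsA array (0.0526) or the third CsA array (0.0683). At 12 h, 24 h and 48 h the differences were -0.24, -0.18 and -0.09, none was called and the arrays overlapped; without the third Flt3-L array at 12 h, -0.39 was called there (adjusted p = 0.0163, limma). Between 11 days and the average over the earlier times, its CsA effect differed by 0.52 ± 0.11 (adjusted p = 0.00232, limma). Against unstimulated cells (88.9, 91.9 and 83.7), Flt3-L cultures were higher by 0.39 at 48 h (adjusted p = 0.00222) and 1.15 at 11 days (1.41e-10). At 12 h the 3 Flt3-L arrays (75.0, 87.8 and 59.1) overlapped the unstimulated ones; the call of -0.27 (adjusted p = 0.0331, limma) was lost when any of 4 of the 6 arrays was left out, and the difference was -0.12 (adjusted p = 0.332) without the third Flt3-L array.

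Il1rn, the gene of the interleukin 1 receptor antagonist, had the largest CsA difference of the 7 genes at 11 days. It gave 355.9, 387.5 and 391.3 with CsA, against 1812.0, 1695.9 and 2053.4 with Flt3-L alone. The groups were far apart, and Il1rn fell by 2.29 ± 0.07, 4.89-fold (adjusted p = 1.04e-16, limma), rank 7 from the most negative of all genes. At 24 h it gave 551.6, 563.5 and 579.9 with CsA and 706.3, 830.5 and 812.2 with Flt3-L alone, and at 48 h 536.5, 570.4 and 538.5 with CsA and 763.8, 811.5 and 773.0 with Flt3-L alone. Both comparisons were without overlap, with -0.47 ± 0.07 at 24 h (adjusted p = 1.90e-04, limma) and -0.51 ± 0.07 at 48 h (adjusted p = 4.91e-05, limma). At 12 h the arrays lay apart in the other direction, 948.6, 1022.7 and 950.0 with CsA and 800.9, 882.7 and 844.6 with Flt3-L alone. The difference of 0.21 ± 0.07 was not called (adjusted p = 0.0743, limma); it was called when array medians were subtracted (0.0379), with array weights (0.0268) and with replicate number as a block (0.0325). The effect at 48 h minus that at 12 h was -0.72 ± 0.10 (adjusted p = 6.17e-04, limma), the 1 member called of 7 in that difference, against 0.773% of all genes. Set against the average over the earlier times, its effect at 11 days differed by -2.03 ± 0.08 (adjusted p = 2.19e-14, limma).

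With Flt3-L alone, Il1rn differed little from its unstimulated level until 48 h and rose at 11 days. Unstimulated cells gave 681.8, 797.0 and 739.0, which overlapped the Flt3-L arrays at 24 h and 48 h, with differences of 0.08 at each time (95% intervals -0.07 to 0.23 and -0.06 to 0.23). At 11 days it rose by 1.32 ± 0.07, 2.5-fold (adjusted p = 1.50e-14, limma). At 12 h a rise of 0.19 was called (adjusted p = 0.0392, limma), but not when any of 4 of the 6 arrays was left out or when array medians were subtracted (0.0828). In CsA cultures the means were 973.8 ± 42.4 at 12 h, 565.0 ± 14.2 at 24 h, 548.5 ± 19.0 at 48 h and 378.2 ± 19.4 at 11 days (SD, n = 3 each), the lowest group of all 9 being the last. The antagonist gene and Il1a lay on opposite sides of Flt3-L alone at 11 days, Il1rn 4.89-fold lower and Il1a 2.33-fold higher with CsA.

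Of the receptor genes, Il1r2, the decoy receptor, was called with CsA at 11 days and not at the 3 earlier times. With CsA at 11 days it gave 262.7, 222.1 and 181.2, against 289.9, 373.1 and 290.3 with Flt3-L alone. The groups did not overlap, although the highest CsA array was near the lowest Flt3-L array, and Il1r2 fell by 0.52 ± 0.14, 1.44-fold (adjusted p = 0.0144, limma). The call was lost without the second Flt3-L array (0.103), without the third CsA array (0.127) and with only the groups compared in the model (0.054). At 24 h the signals were 342.6, 467.8 and 378.6 with CsA and 498.4, 621.7 and 499.6 with Flt3-L alone. They did not overlap and the second array was the highest of both groups; -0.45 ± 0.14 was not called (adjusted p = 0.0857, limma) but was with replicate number as a block (adjusted p = 0.00666), with a second quantile normalization (0.0472) and without the second CsA array (0.0378). At 48 h, 366.6, 523.7 and 407.6 with CsA overlapped 515.2, 578.8 and 566.7 with Flt3-L alone, and -0.37 ± 0.14 was not called (adjusted p = 0.178, limma) but was with the block (0.025). At 12 h the difference was -0.08 (95% interval -0.38 to 0.21). The CsA effect on Il1r2 at 11 days was not shown to differ from the average over the earlier times (-0.22 ± 0.16, adjusted p = 0.401, limma). Flt3-L alone differed from unstimulated cells (558.0, 647.1 and 585.5) at 11 days by -0.92 ± 0.14, 1.89-fold lower (adjusted p = 4.19e-06, limma), and was not called at the 3 earlier times, where differences lay between -0.19 and -0.11.

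Il1rap, the accessory chain shared by the receptors of interleukin 1 and interleukin 33, was not called in any of the 4 CsA comparisons. Its differences were -0.04, -0.04, -0.03 and -0.09 at 12 h, 24 h, 48 h and 11 days, and the widest 95% interval bounds were -0.23 and 0.11. The arrays overlapped at all 4 times, as with 217.8, 227.7 and 195.5 in CsA cultures and 230.1, 212.6 and 240.9 in Flt3-L cultures at 11 days. Against unstimulated cells (369.9, 419.7 and 401.3) it fell with Flt3-L at every time, by 0.45 ± 0.07 at 12 h (adjusted p = 6.65e-06, limma) and by 0.80 ± 0.07 at 11 days (adjusted p = 1.25e-10, limma). The step at 24 h over 12 h (-0.22, adjusted p = 0.0377, limma) was lost whichever of its 6 arrays was left out. Over the 9 groups its highest mean was 1.85-fold its lowest, the smallest such ratio among the 7 genes.

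Il18rap, the accessory chain of the interleukin 18 receptor, had the largest difference of the 7 members between Flt3-L cultures at 11 days and unstimulated cells. With Flt3-L alone at 11 days it gave 104.1, 96.0 and 111.1, against 782.5, 916.1 and 886.1 in unstimulated cells. It fell by 3.05 ± 0.11, 8.3-fold (adjusted p = 9.05e-18, limma), and by 3.00 ± 0.11 against Flt3-L at 48 h (adjusted p = 4.98e-17, limma). The arrays at 12 h (947.9, 1084.7 and 1061.0) and 24 h (1027.5, 1076.1 and 1051.1) with Flt3-L lay above the unstimulated ones, but 0.26 and 0.29 were not called (adjusted p = 0.081 and 0.0506, limma); the difference at 24 h was called under 6 other settings (adjusted p between 0.00722 and 0.0377), replicate number as a block among them (0.0334), and at 12 h with only the groups compared (0.0214) or a second quantile normalization (0.0355). The fall at 48 h against 24 h (-0.35, adjusted p = 0.0376, limma) was lost whichever of its 6 arrays was left out. With CsA at 11 days the signals were 69.7, 62.1 and 100.2, and the third overlapped the Flt3-L arrays. Every Il18rap signal at 11 days, with or without CsA, lay below the array medians. Il18rap was called lower there (-0.45 ± 0.11, 1.37-fold, adjusted p = 0.00788, limma), but not without the first CsA array (0.0503), the second (0.0955) or with only the groups compared (0.114). At 12 h, 24 h and 48 h its CsA differences were 0.15, -0.14 and -0.12 and none was called. Set against the average of its earlier effects, that at 11 days differed by -0.41 ± 0.13 (adjusted p = 0.0417, limma), and it was lost in 14 of 24 repeats without 1 array, with -0.27 and an adjusted p of 0.199 at the weakest.

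With Flt3-L alone against unstimulated cells, 4 of the 7 members were called at 12 h and again at 48 h, 3 at 24 h and all 7 at 11 days. Of all genes, 36.0% were called at 12 h, 35.6% at 24 h, 37.1% at 48 h and 51.9% at 11 days. Without single arrays the count at 12 h was 2 or 3. At 11 days Il1a, Il18 and Il1rn were higher (27.2% of all genes were) and Il1b, Il1r2, Il1rap and Il18rap lower (24.8% of all genes were). The steps between times had 2 members called at 24 h over 12 h (11.1% of all genes), 3 at 48 h over 24 h (17.1% of all genes) and 6 at 11 days over 48 h (43.0% of all genes). Il1rap was the 1 member not called in that last step.

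Several other genes of the pathway were described in the same CsA comparisons, from lists given with their counts and medians. The median of the wider family was -0.03, 0.06, 0.01 and -0.01 at 12 h, 24 h, 48 h and 11 days. Of 8 measured genes of the wider interleukin 1 family, Il18bp, whose product binds and neutralises interleukin 18, rose with CsA at 12 h (707.5 against 494.6 with Flt3-L alone, 0.52 ± 0.08, adjusted p = 8.99e-04, limma) and at 11 days (1017.7 against 706.3, 0.54 ± 0.08, adjusted p = 4.88e-05, limma). Sigirr, an inhibitory receptor of the family, fell at 11 days (-0.23 ± 0.06, adjusted p = 0.0172, limma). By limma, 0 of that list were called at 24 h or 48 h, where 3.78% and 4.51% of all genes were. At those times 2 and 1 of the list had an unadjusted p under 0.05. With replicate number as a block, 1 of that list was called at each of those times. Il18r1, the ligand-binding chain that pairs with the product of Il18rap, was not called with CsA at any time but, like Il18rap, was lower in Flt3-L cultures at 11 days than in unstimulated cells (45.5 against 208.1, -2.18 ± 0.13, adjusted p = 8.26e-14, limma). Il1rl2, the interleukin 36 receptor gene, was lower in Flt3-L cultures at 48 h than in unstimulated cells (78.5 against 212.0, -1.43 ± 0.15, adjusted p = 1.19e-08, limma), and was called lower at 12 h and 24 h as well. At 11 days it was 180.5 with Flt3-L alone, not called against unstimulated cells (-0.24 ± 0.15, adjusted p = 0.201, limma) and 1.20 above its level at 48 h (adjusted p = 2.00e-07, limma). It was not called with CsA, where its differences lay between 0.19 and 0.48.

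Genes of cytokine maturation and release (15 measured) were called with CsA in 1 case higher at 12 h, and 2, 4 and 3 lower at 24 h, 48 h and 11 days. Of all genes, 6.73%, 3.78%, 4.51% and 12.0% were called at these times. The medians of the list were 0.0, -0.02, -0.01 and 0.06, close to those of all genes. Nlrp3, the inflammasome sensor, fell at 24 h (362.5 with CsA against 483.3, -0.42 ± 0.10, adjusted p = 0.0119, limma) and 48 h (417.1 against 555.4, -0.42 ± 0.10, adjusted p = 0.0123, limma). Aim2, a sensor of DNA, fell at 24 h (-0.48), 48 h (-0.27) and 11 days (-0.26), and Mefv and Nlrc4 fell at 48 h (-0.46 and -0.41). The sensors Nlrp1a and Nlrp1b both fell by 0.52 at 11 days. Casp1, the caspase that cuts the precursors of interleukin 1 beta and interleukin 18, was not called with CsA at any time, with 712.4 against 709.2 at 11 days (0.01 ± 0.10, adjusted p = 0.961, limma). In Flt3-L cultures against unstimulated cells, 10 of the 15 rose and 2 fell at 11 days, where 27.2% of all genes were higher and 24.8% lower. Those that rose included Nlrp1b (2.02), the ATP-gated channel P2rx7 (1.88), Casp1 (1.23) and the adaptor Pycard (1.09), and the pair that fell were Mefv (-0.65) and Nlrp3 (-0.49).

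Of 19 measured genes of receptor signalling, 1 was called with CsA at 12 h (Mapk14, the p38 kinase, -0.18), 1 at 24 h (the kinase Irak2, -0.22), 0 at 48 h and 1 at 11 days (Ikbkg, a subunit of the IκB kinase complex, -0.25), all lower. Of all genes, 6.73%, 3.78%, 4.51% and 12.0% were called at these times, and the list medians were 0.01, -0.02, -0.01 and -0.03. At 48 h, where limma called 0, 6 of the 19 had an unadjusted p under 0.05, and 2 were called lower with the block. Genes commonly induced by interleukin 1 (15 measured) were called lower in 3, 4, 5 and 5 cases at 12 h, 24 h, 48 h and 11 days, and higher in 2 at 11 days, with list medians of -0.09, -0.01, -0.16 and 0.09. Ptgs2, the inducible cyclooxygenase, fell at 24 h (-0.80 ± 0.15), 48 h (-1.05) and 11 days (-0.71), and Csf1, the macrophage growth factor, fell at the same times (-0.73 ± 0.12, -0.97 and -1.19). Tnf (-0.56) and Ccl3 (-0.39) fell at 12 h, and Cxcl2 fell at 48 h (-0.77 ± 0.22, adjusted p = 0.0481, limma). Lcn2, which encodes the neutrophil granule protein lipocalin 2, gave 152.3 with CsA and 602.0 with Flt3-L alone at 11 days (-1.97 ± 0.07, adjusted p = 1.60e-15, limma). Ccl4, a chemokine of macrophages, fell at 24 h (-0.43) and rose at 11 days (0.57).

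**Figure D3:**
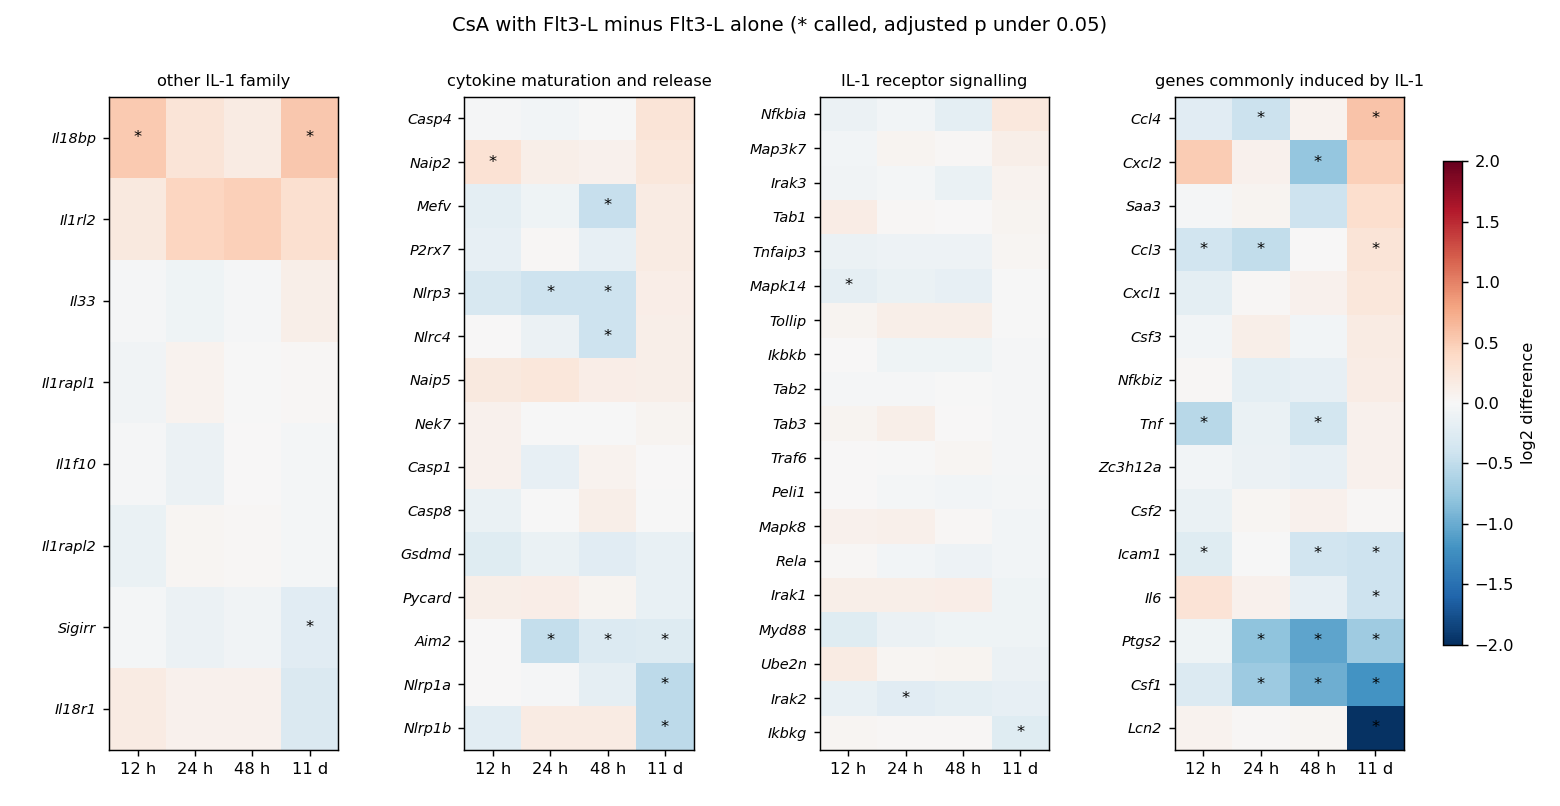
Log2 differences of CsA with Flt3-L minus Flt3-L alone (colour, blue lower and red higher with CsA) for the genes of 4 lists (rows) at 4 times (columns); asterisks mark called genes. Lcn2 at 11 days has the darkest blue (-1.97), Il18bp is called higher at 12 h and 11 days, and no receptor signalling gene is called at 48 h.

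Markers of cell types that bone marrow cultures can hold moved with some of these comparisons. With CsA, 6.73%, 3.78%, 4.51% and 12.0% of all genes were called at 12 h, 24 h, 48 h and 11 days. At 11 days 9 of 10 neutrophil markers fell with CsA, and their summed signal was 1783 to 2535 with CsA, against 4758 to 5205 with Flt3-L alone. At 11 days 9 of 10 conventional dendritic cell markers fell as well (9249 to 11802 with CsA against 16202 to 17954), while of 9 monocyte and macrophage markers 1 rose and 1 fell (47883 to 48835 against 45884 to 47400). Of 6 B lineage markers 4 fell at 11 days (514 to 558 with CsA against 1405 to 1716), as did 5 of 6 eosinophil markers (582 to 674 against 1317 to 1463) and 3 of 8 mast cell and basophil markers (529 to 608 against 616 to 739). Of 10 T and NK cell markers 5 fell and 1 rose, with overlapping sums (1179 to 1285 with CsA against 1004 to 1394). Plasmacytoid dendritic cell markers (2 of 6 rose and 2 fell) and stromal markers (1 of 7 rose and 1 fell) moved both ways. At 24 h and 48 h all 6 eosinophil markers fell (3400 to 3705 with CsA against 6624 to 7094 at 24 h, and 2126 to 2402 against 3624 to 3846 at 48 h), as did 4 and 6 of 8 mast cell and basophil markers and 2 and 2 of 10 neutrophil markers. B lineage markers fell in 1 of 6 cases at 24 h (4 with replicate number as a block) and in 5 of 6 at 48 h (5212 to 6417 with CsA against 7908 to 8755). Of 10 conventional dendritic cell markers 2 fell at 24 h (6680 to 7280 with CsA against 7533 to 8059). At 48 h 1 of them fell (8868 to 9250 against 10248 to 11033). Of 9 monocyte and macrophage markers 1 rose and 1 fell at 24 h. At 48 h 1 of these fell, as did 1 plasmacytoid dendritic cell marker. At 12 h 2 eosinophil, 2 monocyte and macrophage and 1 plasmacytoid dendritic cell markers fell, and 1 conventional dendritic cell marker rose. At that time limma called 0 neutrophil markers, with 2 under an unadjusted p of 0.05. No marker is listed at 0, since the table has no value under 5.2. Between Flt3-L cultures at 11 days and unstimulated cells, all 10 neutrophil markers fell (4758 to 5205 against 57609 to 59130), while 8 of 9 monocyte and macrophage markers rose and 1 fell. All 6 B lineage markers fell there too (1405 to 1716 against 10338 to 10891), as did 7 of 8 mast cell and basophil markers (616 to 739 against 7564 to 8565). Of 6 eosinophil markers 5 fell and 1 rose (1317 to 1463 against 9900 to 10132). Of 10 T and NK cell markers 8 fell and 1 rose (1004 to 1394 against 2165 to 2284). Of 7 stromal markers 5 fell and 1 rose. All 10 conventional dendritic cell markers rose (16202 to 17954 against 5107 to 5181). Of 6 plasmacytoid dendritic cell markers 4 rose and 1 fell. Of all genes, 27.2% were higher and 24.8% lower in that comparison. The part of these cell types in the differences of the 7 members was not tested.

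**Figure D4:**
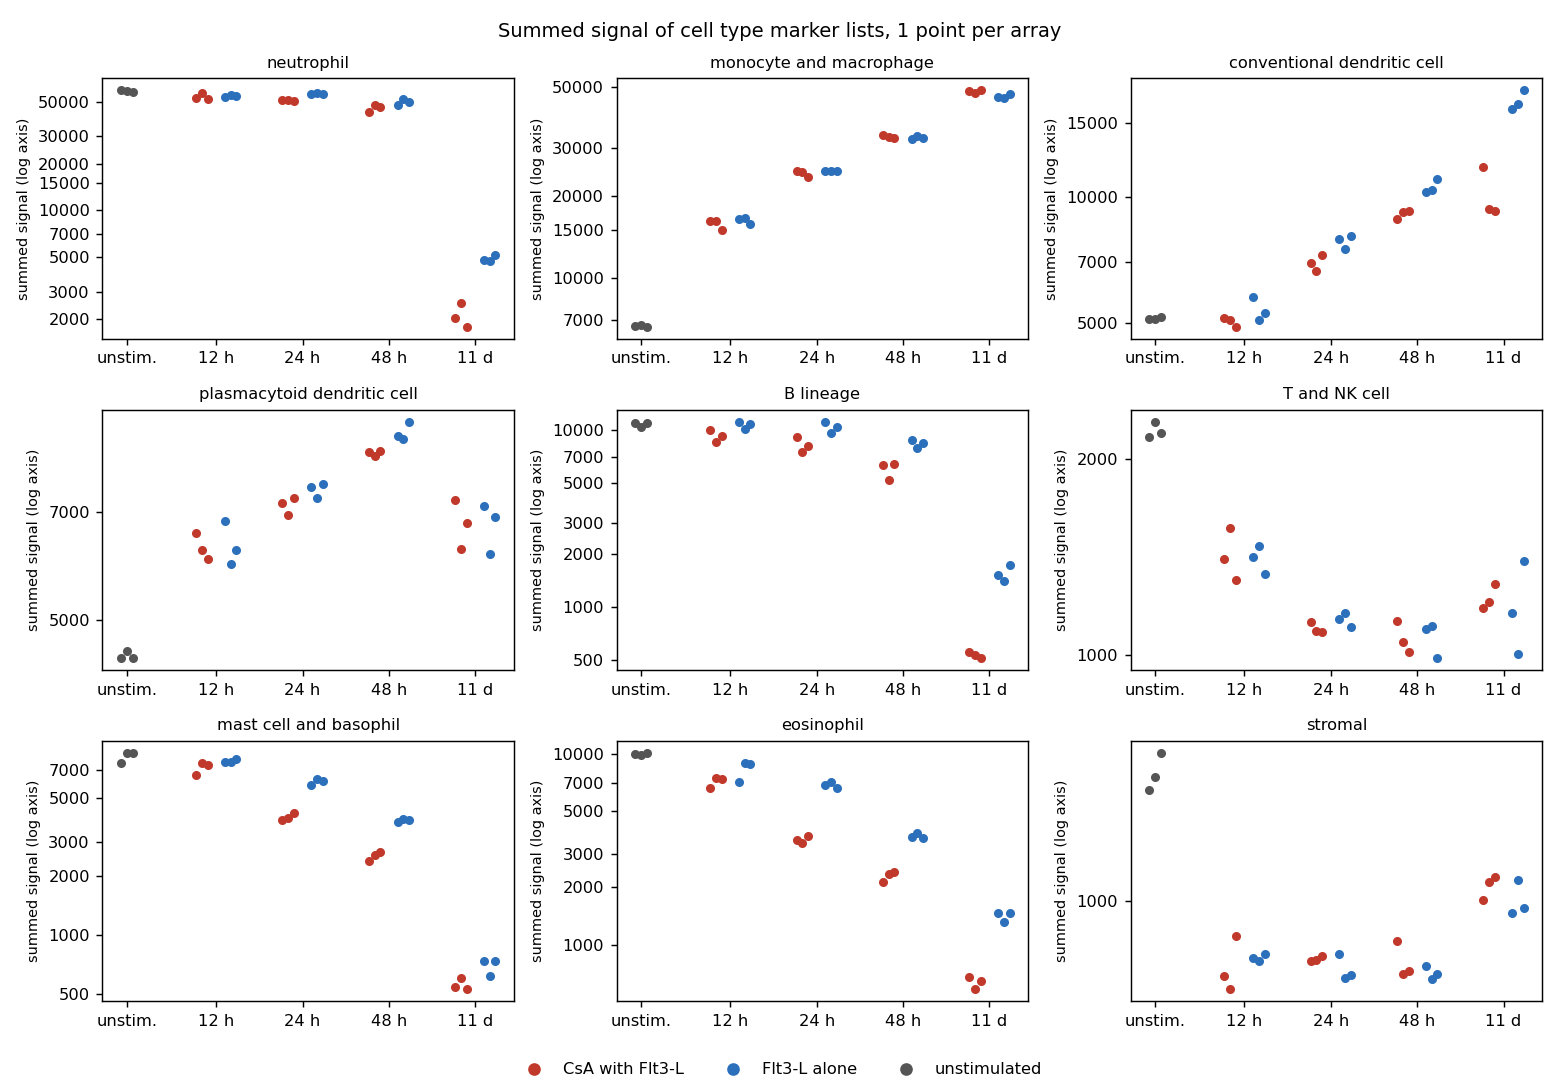
Summed signal of 9 cell type marker lists on each array (points, log axes that differ between panels) in CsA with Flt3-L (red), Flt3-L alone (blue) and unstimulated cells (grey). Neutrophil markers were at 42789 or more until 48 h and at 5205 or less in all 6 arrays at 11 days, and eosinophil markers were lower with CsA on every array at 24 h and 48 h.

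As a description of which genes ran most nearly in parallel with 3 of the members over the 9 group means, Pearson correlations were computed for 3811 genes with a span of at least 1 log2 unit. Il1b ran closest to Stfa2 (0.951), Jchain (0.929) and Nxpe4 (0.927). Il1rn ran closest to S100a4 (0.887), Ifi27l2a (0.878) and P2ry10 (0.876), and Il1r2 to Ifi213 (0.990), Gimap6 (0.976) and Gpr18 (0.970). Both genes of a correlation were read on the same arrays, with the same normalization and times in culture. Nothing about shared control follows from these values.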

How the data were processed

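Total RNA of 27 mouse bone marrow samples was hybridised to one-colour arrays. Probe set intensities were made with RMA by the authors before they deposited them, per the submitters' processing notes, with no version given. They lie between 5.2 and 18180.7, a linear scale, so log2 was taken before any test. Background and detection are not in the table, and no filter on dim probe sets was applied. Of 28815 probe sets, 21780 carried 1 symbol in the platform annotation, which can be old, 1605 several and 5430 none. Taking 1 probe set a gene left 19935 genes.

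Group means were fitted with limma 3.58.1 (lmFit, contrasts.fit, eBayes) in R 4.3.3 and adjusted with Benjamini-Hochberg over all genes of a comparison. The script was tested on simulated data. Tables and plots used Python 3.11.15, pandas 2.3.3, numpy 2.4.6, scipy 1.17.1 and matplotlib 3.10.9. P-values rest on 1 variance per gene, pooled over the 9 groups of 3 cultures and moderated by eBayes. That variance is not the spread of the groups compared, and the number of cultures limits precision. The members and lists were chosen with earlier results of these data known. All members are named, with up to 4 genes of a list by size of change in the CsA or Flt3-L comparison described. A gene named for a comparison can also be given in another, as Casp1 is with CsA. The 3 genes most like each of Il1b, Il1rn and Il1r2 are named too, predicted genes left out.

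No label pairs the arrays by number. The deviations of same-numbered arrays from their group means correlated, across genes, by more than 0.1 in every pair at 24 h in the CsA comparison (lowest 0.35), at 48 h in the CsA comparison (lowest 0.18), and at 24 h and 12 h in the comparison of Flt3-L with unstimulated cells (lowest 0.13 and, rounded, 0.1). The same held for Flt3-L at 48 h against 24 h (lowest 0.41), so a blocked fit is given beside a result there where it changes a call. In the CsA comparison at 48 h, replicates 2 and 3 correlated best with another number. So did replicate 2 at 24 h in the comparison of Flt3-L with unstimulated cells. In the CsA comparison at 12 h each replicate matched its own number best, but not every pair exceeded 0.1. Other alternatives were an intensity trend, robust variances, the dimmest genes left out (mean log2 under 6.23), quantile normalization again, array medians subtracted, log2(signal + 16), only the groups compared, array weights, an average over probe sets and each array left out in turn.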

Additional observations from a re-analysis of the deposited data

Results flagged for a closer look

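A CsA effect that differed between times, by the test of the difference itself in limma, was found for 4 members when the effect at 11 days was set against the average of the effects at 12 h, 24 h and 48 h. The difference was 1.01 ± 0.16 for Il1a (adjusted p = 1.03e-04), 0.52 ± 0.11 for Il18 (adjusted p = 0.00232), -2.03 ± 0.08 for Il1rn (adjusted p = 2.19e-14) and -0.41 ± 0.13 for Il18rap (adjusted p = 0.0417). Il1rn also differed between 48 h and 12 h, by -0.72 ± 0.1 (adjusted p = 6.17e-04). The Il18rap difference was lost in 14 of 24 repeats without 1 array, with array weights (adjusted p = 0.0777) and with log2(signal + 16) (adjusted p = 0.0575). With 3 arrays a group, single arrays far from the others were not searched for by a test.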

How the results depend on the processing

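Of 910 values of the members recomputed under 10 other settings, 881 kept their direction and side of the threshold, 16 gained a call, 7 lost one and 6 changed sign; of 714 recomputed without 1 array, 651 were unchanged in that sense, 6 gained a call, 41 lost one and 16 changed sign. The count of members called with CsA at 12 h was 2 with array medians subtracted, with array weights and with the replicate block, and 1 to 2 without single arrays. Without single arrays the count was 2 to 3 for Flt3-L against unstimulated cells at 12 h, 1 to 2 for Flt3-L at 24 h over 12 h, and 1 to 2 for the CsA effect at 48 h minus that at 12 h. No value that changed sign was called. With array medians subtracted, Il1rap was 0.0079 for CsA at 12 h and -0.0434 for the CsA effect at 48 h minus 12 h. With array weights the second was -0.0431, Il1a was -0.0277 there, and Il1rn was -0.0229 for Flt3-L at 48 h over 24 h (-0.0159 with quantile normalization again). For some members and comparisons a repeat without 1 array changed sign. Over all repeats of these, values ran between -0.1693 and 0.0078 (Il1r2, CsA at 12 h). They ran between -0.0752 and 0.0341 (Il1rap, CsA at 48 h) and -0.0651 and 0.0356 (Il18, Flt3-L against unstimulated cells at 24 h). For Flt3-L at 24 h over 12 h they ran between -0.0693 and 0.1284 (Il1r2) and -0.0291 and 0.0682 (Il18rap), and for 48 h over 24 h between -0.0698 and 0.047 (Il1rn) and -0.0116 and 0.1479 (Il1r2). Il1rap ran between -0.1051 and 0.0066 for the late CsA effect minus the earlier average and between -0.0328 and 0.0765 for 48 h minus 12 h. The replicate block, beside the calls given with the results, gained Il1rn with CsA at 12 h (adjusted p = 0.0325, limma). In that comparison each replicate matched its own number best (0.19, 0.19 and, rounded, 0.1), but not every pair exceeded 0.1. No label pairs these arrays. Over all genes, CsA at 12 h called 1341, against 177 with only the groups compared, 2111 with the block and 5301 with array weights; 24 h called 754 against 396, and 48 h 899 against 451, with only the groups compared. The 48 h minus 12 h difference called 154 (88 higher), against 59, 334 and 1472 in the same order, and 120 (30 higher) with medians subtracted. The cause of these shifts was not tested. Signals of Il1a and Il18 below the array medians limit what can be seen of them at 12 h. At 11 days the same limit holds for Il18rap with and without CsA, and for Il1b with CsA.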
